A study of Mus musculus with 6 samples.

Results

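This account follows 10 genes of the 39017 in the count table across the 6 RNA-seq libraries of iGBs, which are splenic B cells cultured to resemble germinal center B cells. The genes were found by symbol, as textbook matrix, fibroblast and feeder ligand genes, and the choice was made with earlier results of these data known. They are the fibrillar collagens Col1a1, Col1a2, Col3a1, Col5a1 and Col5a2, the matrix glycoproteins Fn1 and Sparc, the surface protein Thy1, and Cd40lg and Tnfsf13b, which encode the CD40 ligand and BAFF. The Control group held iGBs from 3 Cg1-cre mice and the Prmt1-null group iGBs from 3 Cg1-cre Prmt1f/f mice, all C57BL6/J, with 2 females and 1 male in each group and 1 library per mouse. Ages were not given in the sources used here. Every culture was grown for 3.5 days on 40LB cells with CD40L, BAFF and IL-4, which the labels give at 5 ng/ml and the study's methods at a lower concentration. Cg1-cre was carried by both groups and acts once a B cell transcribes the γ1 constant region, so that deletion of Prmt1 is restricted to activated cells and need not be complete. Prmt1 normalized counts were 3924 to 4838 in Control and 1477 to 1745 in Prmt1-null libraries, 36.9% of the Control mean.

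40LB cells are irradiated fibroblasts that carry CD40L and BAFF, and they supply to cultured B cells the signals that T cells and stromal or myeloid cells give in the follicle. They were depleted before RNA was extracted, with an antibody that the study's methods give as one to H2Kd, an MHC class I allele that C57BL/6 cells do not carry. Collagen I and III form the thick fibrils of connective tissue, collagen V starts and limits those fibrils, fibronectin links the matrix to integrins, and Sparc binds collagen. These are textbook products of fibroblasts, whereas B cells are known for making little matrix. A read from a feeder cell and a read from a B cell of the same gene cannot be told apart in a table of counts per gene, nor can fewer cells of a type and less RNA per cell. The sources used here do not give the sequences of CD40L and BAFF that the feeders carry, so how completely these would be counted on the mouse genes was not tested.

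The collagens share a structure that shaped their genes. The chain is a repeat of Gly-X-Y, so that a glycine codon (GGN) opens each triplet of codons, and much of the repeat is cut into exons of 54 bases. One such exon of each collagen is shown, the first of that length in frame with the longest uninterrupted repeat, because the repeat is what makes these 5 genes collagens. The sequences were read from the GENCODE M21 transcripts (GRCm38, the build of mm10), 5′ to 3′ on the coding strand. The capitals mark the glycine codon that opens each triplet, and glycine codons elsewhere in a triplet are in small letters. They are exons 8, 8, 6, 15 and 10 of the 5 transcripts, at chr11:94939904-94939957 (plus strand), chr6:4515481-4515534 (plus), chr1:45325360-45325413 (plus), chr2:27965251-27965304 (plus) and chr1:45422386-45422439 (minus).
Col1a1: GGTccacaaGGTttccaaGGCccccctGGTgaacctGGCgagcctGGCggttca
Col1a2: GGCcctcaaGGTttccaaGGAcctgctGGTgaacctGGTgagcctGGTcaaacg
Col3a1: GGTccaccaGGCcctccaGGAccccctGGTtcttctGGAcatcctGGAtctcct
Col5a1: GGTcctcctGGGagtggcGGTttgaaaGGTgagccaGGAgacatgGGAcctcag
Col5a2: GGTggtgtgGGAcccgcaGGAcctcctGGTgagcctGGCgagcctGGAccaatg

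Each of these exons holds 6 Gly-X-Y triplets. The longest uninterrupted repeat ran over 338 triplets in Col1a1, 339 in Col1a2, 344 in Col3a1, 338 in Col5a1 and 339 in Col5a2. It took up 69.8%, 74.1%, 70.5%, 55.2% and 67.9% of the codons. Between 41 and 47 exons lay inside the repeat, of which 21 to 29 were 54 bases long. The Col1a1 and Col1a2 exons were identical at 42 of the 54 bases, and the Col1a1 and Col5a1 exons at 24. The exons were taken by length and frame, not aligned as counterparts, and the GG opening each of the 6 triplets matches by that choice. Col3a1 (chr1:45311538-45349706, plus strand) and Col5a2 (chr1:45374321-45503282, minus strand) are neighbours, with 24614 bases between them. Col1a1 lies at chr11:94936224-94953042 (plus strand), Col1a2 at chr6:4504814-4541544 (plus strand) and Col5a1 at chr2:27886425-28039514 (plus strand).

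The libraries held between 45343250 and 62774232 counts on genes. At that depth 3 counts, the least taken as detected, correspond to 0.0475 to 0.0657 CPM (the usual counts scaled to library size). Low counts were more often even than odd. Among genes with 1 to 10 counts, 71.9% to 73.9% were even in the 6 libraries, against 54.1% to 57.6% among genes with 101 to 200 counts. The count of both reads of a pair would give even numbers, and whether pairs were counted as 1 or as 2 is not given in the sources used here. A count of 2 may therefore stand for a single RNA fragment, and a floor of 3 counts covers counting error only.

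The 10 genes were weakly counted in iGBs. B cell markers were abundant, from Pax5 with a mean of 198.2 CPM to Cd74 with 5217 CPM, and the summed CPM of 10 B cell markers ran from 13510 to 15240 in Control and from 14990 to 15600 in Prmt1-null libraries. The 10 members together reached 28.8 to 33.6 CPM in Control and 31.5 to 40.3 CPM in Prmt1-null libraries. Per length of merged exons (RPKM, CPM per kilobase), Thy1 was highest, with a mean of 4.42 RPKM over the 6 libraries, followed by Col1a1 with 1.15, Fn1 with 0.491, Sparc with 0.473, Col1a2 with 0.224, Cd40lg with 0.201, Tnfsf13b with 0.0908, Col5a2 with 0.0875, Col5a1 with 0.0495 and Col3a1 with 0.0444 RPKM. In this order the ranges over the libraries were separate between Thy1 and Col1a1, between Col1a1 and Fn1, and between Sparc and Col1a2. All other neighbours in the order overlapped. The order and these separations depend on the merged exon lengths used, among them 12426 bases for Col1a2 and 6563 for Col1a1. Cd74, the invariant chain of MHC class II, had 3107 RPKM on the same scale.

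**Figure D1:**
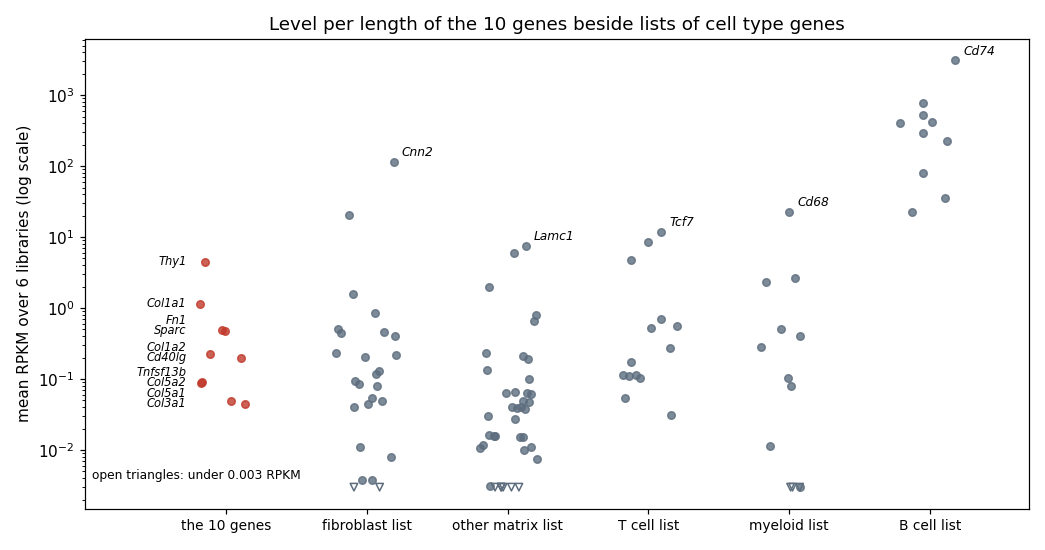
Mean RPKM over the 6 libraries on a log axis, 1 point per gene, for the 10 genes (red) and for lists of fibroblast, matrix, T cell, myeloid and B cell genes (grey), with the highest gene of each list named and genes under 0.003 RPKM drawn as open triangles. The 10 genes lie between 0.0444 and 4.42 RPKM, under all B cell markers, the lowest of which is Pax5 at 22.4 RPKM.

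The feeder label was compared with other genes of fibroblasts. Of 26 fibroblast genes, 20 stayed under 100 counts in every library, 4 never reached 3 counts, and 1 of these, Myl9, was at 0 throughout. Twist1, Twist2 and Ccn2 had at most 2 counts. Pdgfrb, a receptor of mesenchymal cells, had 4 to 28 counts, and Prrx1 13 to 66. The summed CPM of the list, 302.1 to 323.8 in Control and 310.4 to 330 in Prmt1-null libraries, came mostly from Cnn2 with a mean of 282.1 CPM, followed by Lgals1 with 18.3 and Tagln with 3.13. Of 39 other matrix genes, 33 stayed under 100 counts in every library, and Lum, Eln and Postn were at 0. Nid1 and Lamc1, both of basement membrane, led that list with 42.1 and 62.4 CPM, ahead of Thbs1 with 11.9. At least 3 counts in every library were found for 18 of the 26 fibroblast genes, 19 of the 39 other matrix genes and 9 of the 10 members, and the cell these reads came from was not tested.

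None of the 10 genes differed between genotypes at an adjusted p under 0.05. All 10 passed the filter on low counts and were tested with edgeR's quasi-likelihood test among 18268 genes, of which 218 (1.19%) were called. Adjusted p-values in the text are from this test with Benjamini-Hochberg adjustment over all 18268 genes. With 1 library left out, the number of genes called was 128, 60 or 350 without Control replicate 1, 2 or 3, and 51, 31 or 77 without Prmt1-null replicate 1, 2 or 3, while the number of members called was 0 each time. DESeq2's Wald test, which gave no adjusted p for 6 of the 10, and limma-voom also called 0 members. At an unadjusted p under 0.05 there were 2 members, Col1a1 and Sparc, against 13.5% of all genes tested. The same 2 members were those whose groups did not overlap, against 19.9% of all genes in either direction and 9.95% with Prmt1-null higher. Both counts, over 10 genes, are near what the whole table shows. The log2 fold change was above 0 for 8 members, against 49.9% of all genes, and the median was 0.25, against −0.00082 for all genes tested. Medians above 0 were not particular to these genes. They were 0.258 for 11 T cell, 0.265 for 4 endothelial and splenic stroma and 0.11 for 7 myeloid markers tested. For 10 B cell markers the median was 0.089, for 18 fibroblast genes 0.108 and for 9 matrix receptors −0.038.

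**Figure D2:**
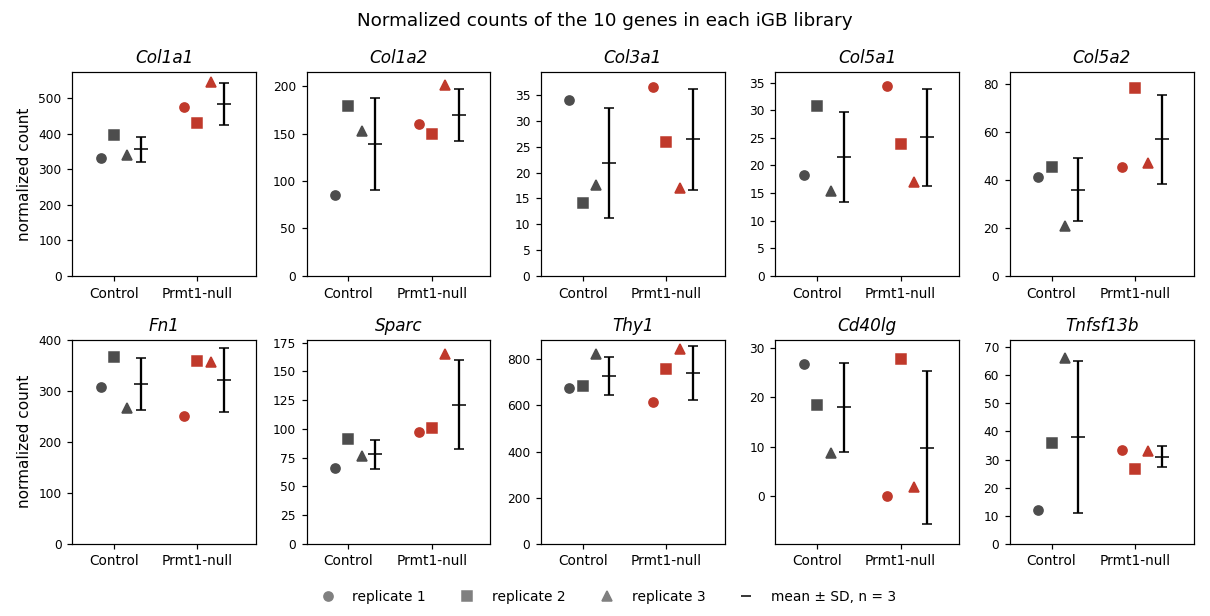
Normalized counts (linear axes, counts scaled to a common library size) of the 10 genes in the 3 Control (grey) and 3 Prmt1-null (red) libraries, with symbols for replicates 1 to 3 and the mean ± SD (n = 3) in black. Only Col1a1 and Sparc have all 3 Prmt1-null libraries above all 3 Control libraries, and Cd40lg is at 0 in Prmt1-null replicate 1.

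Col1a1 and Col1a2 encode the chains of collagen I, the main fibril collagen of skin and bone. Normalized counts of Col1a1 were 331.7, 396 and 339.4 in Control replicates 1 to 3 and 474.9, 429.6 and 546.4 in Prmt1-null replicates 1 to 3. All Prmt1-null libraries lay above all Control libraries. The means were 355.7 ± 35.1 (SD, n = 3) and 483.6 ± 58.9 (SD, n = 3), a log2 fold change of 0.44 (standard error 0.144, 95% interval 0.13 to 0.75). The adjusted p was 0.173, so that the difference was not called, and it lay between 0.0833 and 0.539 over 10 alternative settings. The male libraries held the Control replicate with the lowest and the Prmt1-null replicate with the highest value, and without both males the log2 fold change was 0.30.

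Col1a2 had normalized counts of 85.05, 179.1 and 153.2 in Control and 160, 149.3 and 201.3 in Prmt1-null libraries. The groups overlapped, with Control replicate 1 apart from the other 5 libraries. It differed by 0.28 on the log2 scale (95% interval −0.28 to 0.85, adjusted p = 0.703), and 0.037 without Control replicate 1. Per kilobase of merged exons, the counts of Col1a1 were 7.38, 4.19 and 4.2 times those of Col1a2 in Control and 5.62, 5.45 and 5.14 times in Prmt1-null libraries. These ratios depend on the lengths used, 6563 bases for Col1a1 and 12426 for Col1a2, whereas the coding parts are of similar length, with 1453 and 1372 codons.

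Collagen III, the product of Col3a1, accompanies collagen I in elastic tissues and forms the reticular fibers of spleen. Col3a1 had 28, 16 and 16 counts in Control and 36, 28 and 18 in Prmt1-null libraries, as deposited. These are low counts, and the groups overlapped. Its log2 fold change of 0.28 had a 95% interval from −0.99 to 1.55 (adjusted p = 0.88), that is from 0.504-fold to 2.93-fold. A small RNA gene overlaps an exon of Col3a1 on the same strand.

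Collagen V is made of Col5a1 and Col5a2 chains. Col5a1 had 15, 35 and 14 counts in Control and 34, 26 and 18 in Prmt1-null libraries, with overlap and a log2 fold change of 0.22 (95% interval −1.02 to 1.45, adjusted p = 0.908). Non-coding transcripts overlap its exons on the opposite strand, and whether the counting used strand is not given in the sources used here. Col5a2 had normalized counts of 41.31, 45.65 and 20.93 in Control and 45.56, 78.36 and 47.26 in Prmt1-null libraries. Of the Prmt1-null libraries, 2 lay above all Control libraries and replicate 1 lay just under Control replicate 2. On the log2 scale the difference was 0.66 (standard error 0.438, adjusted p = 0.557), with an interval from 0.824-fold to 3.04-fold. It was 0.37 without Prmt1-null replicate 2 and 0.39 without Control replicate 3.

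Fn1 encodes fibronectin, the matrix protein bound by integrins α4β1 and α5β1 (chr1:71585520-71653200, minus strand). Its normalized counts were 307.4, 367 and 266.6 in Control and 250.1, 359.5 and 357.3 in Prmt1-null libraries. Both groups covered nearly the same range, with means of 313.7 ± 50.5 and 322.3 ± 62.6 (SD, n = 3). Fn1 differed by 0.038 on the log2 scale (95% interval −0.35 to 0.43, adjusted p = 0.952), an interval of 0.784-fold to 1.34-fold. A gene annotated as antisense overlaps its exons on the opposite strand.

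Sparc encodes osteonectin, a collagen-binding protein secreted by cells that build matrix (chr11:55394500-55423183, minus strand). Its normalized counts were 65.61, 91.31 and 76.02 in Control and 97.2, 100.5 and 165.4 in Prmt1-null libraries. The groups did not overlap, but 2 of the Prmt1-null libraries lay close above Control replicate 2 and the third far above. The log2 fold change was 0.64 (95% interval 0.0093 to 1.26, adjusted p = 0.36), and 0.34 without Prmt1-null replicate 3. As for Col1a1, the lowest Control and the highest Prmt1-null value were those of the males, and without both males the difference was 0.24 on the log2 scale.

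The sum of the 7 collagen, fibronectin and Sparc genes was 15.9, 20.3 and 16 CPM in Control and 19.8, 21.1 and 24.4 CPM in Prmt1-null libraries. The groups overlapped at Control replicate 2 and Prmt1-null replicate 1. The mean log2(CPM + 0.1) of the 7 genes gives each gene equal weight. It was 0.602, 0.845 and 0.468 in Control and 0.971, 0.996 and 0.983 in Prmt1-null libraries, without overlap. Of all genes tested, 9.95% had Prmt1-null above Control without overlap. This mean was made for the correlations below, from genes chosen with earlier results known, and its difference was not tested. The summed CPM had means of 17.4 ± 2.47 in Control and 21.7 ± 2.36 in Prmt1-null libraries (SD, n = 3), a ratio of 1.25. This ratio ran from 1.17 to 1.36 with 1 library left out and was 1.13 without both males. Col1a1 took 35.2% to 43.2% of the sum and Fn1 22.8% to 34.8%. Col3a1, Col5a1 and Col5a2 each took between 1.25% and 6.71%. The shares of Fn1 in Prmt1-null replicates 1 and 3 were under all 3 Control shares, and that of replicate 2, 30.8%, was within their range.

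**Figure D3:**
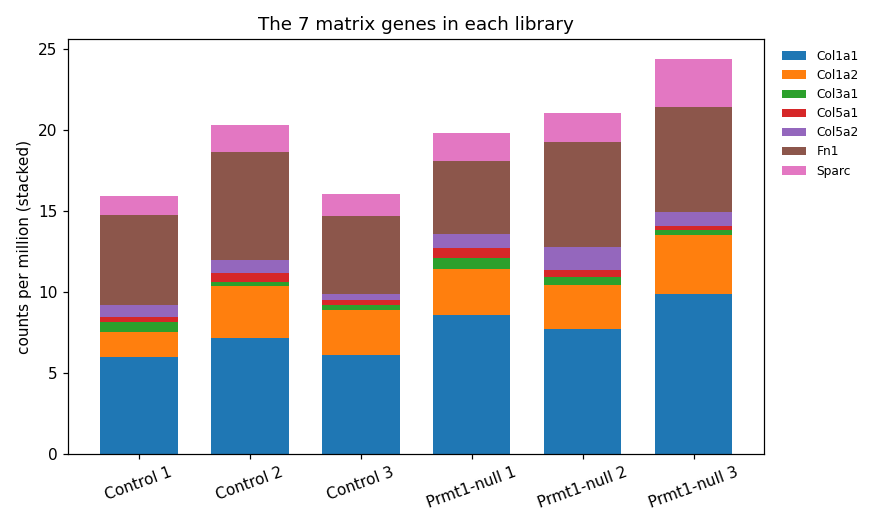
CPM of the 7 matrix genes, stacked, in each of the 6 libraries. The stacks reach 15.9 to 20.3 CPM in Control and 19.8 to 24.4 CPM in Prmt1-null libraries, and Col1a1 with Fn1 make up most of each.

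The 7 matrix genes were compared in their profile over the libraries. The Pearson correlation of each with the mean log2 CPM of the other 6, over the 6 libraries, was 0.82 for Col1a1, 0.65 for Col5a2, 0.56 for Sparc, 0.37 for Col5a1, 0.30 for Col1a2, 0.28 for Fn1 and −0.21 for Col3a1. Spearman correlations were 0.71, 0.71, 0.77, 0.26, 0.14, −0.029 and −0.37 in the same order. These are descriptions without a test, and the points share library and genotype. For all genes tested, the correlation with the mean of the 7 lay between −0.78 at the 5th and 0.78 at the 95th percentile. Of the 7 matrix genes, Col1a1 lay above that range and the others within it. The coefficient of variation between libraries of a group was 9.87% for Col1a1 to 48.6% for Col3a1 in Control and 12.2% to 36.8% for the same genes in Prmt1-null iGBs. The 6339 genes tested with a mean normalized count between those of the lowest and highest matrix gene, 23.3 and 419.6, had median coefficients of 22.4% among Control and 18.6% among Prmt1-null libraries, with 18 genes (0.284%) called.

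The genes outside the 10 with the profile most like the mean of the 7 matrix genes were Atp6v1h, Gm26819, Med10, Snord8, Fth-ps2, Cmtm3, Ddx19b, 1600010F14Rik, Ola1 and Zfp11. Their Pearson correlations over the 6 libraries were 0.983 to 0.993 and their Spearman correlations 0.771 to 1. Without the 2 libraries farthest from the median, Control replicates 1 and 3, the Pearson correlations were 0.746 to 0.997. These 10 genes were picked by that correlation from all genes tested, so their high values follow from the choice. None of the 10 was called between genotypes. None was on the other matrix or fibroblast lists, but only 21 and 18 genes of these were among the 18268 tested. A pick of 10 genes would seldom include one, so this absence tells nothing about those lists.

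Thy1 encodes CD90, a glycolipid-anchored surface protein of mouse T cells, neurons and many fibroblasts (chr9:44043384-44048579, plus strand). Its normalized counts were 676.7, 683.9 and 823 in Control and 615.6, 758.7 and 846 in Prmt1-null libraries. The means were 727.9 ± 82.5 and 740.1 ± 116 (SD, n = 3), and the groups overlapped. Thy1 differed by 0.025 on the log2 scale (95% interval −0.27 to 0.32, adjusted p = 0.96), from 0.83-fold to 1.25-fold, the narrowest interval of the 10 genes. The coefficients of variation of Thy1 were 11.3% among Control and 15.7% among Prmt1-null libraries, against medians of 11.7% and 9.65% over all genes tested, and its lowest library, 3.71 RPKM, stood above the highest library of any other member.

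Cd40lg (chrX:57212143-57224042, plus strand) encodes the ligand by which helper T cells engage CD40, and it had the highest coefficient of variation of the 10 genes among Prmt1-null libraries, 157%. Its deposited counts were 22, 21 and 8 in Control and 0, 30 and 2 in Prmt1-null libraries. Prmt1-null replicate 2 had the highest normalized count of all 6 libraries, 27.66, while replicate 1 had none, for which 3 counts or 0.0548 CPM is the floor, and replicate 3 was under the floor. The fitted difference of −0.84 on the log2 scale had a 95% interval from 0.117-fold to 2.65-fold (adjusted p = 0.789). It was −4.04 (adjusted p = 0.328) without Prmt1-null replicate 2 and 0.023 without both males, so that its sign depended on which libraries entered the fit. The library without Cd40lg counts had 469 counts of Col1a1 and 608 of Thy1.

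Tnfsf13b (chr8:10006467-10039072, plus strand) encodes BAFF, a survival factor for B cells made by stromal and myeloid cells. Its normalized counts were 12.15, 36 and 66.11 in Control and 33.41, 26.73 and 33.08 in Prmt1-null libraries. The Control libraries spanned the whole range, with a coefficient of variation of 71%, and the Prmt1-null libraries lay inside it, with 12.1%. The log2 fold change was −0.30 (95% interval −1.52 to 0.93, adjusted p = 0.867), and 0.35 without Control replicate 3. The Pearson correlation with the mean of the matrix genes over the 6 libraries was −0.31 for Cd40lg and −0.15 for Tnfsf13b.

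**Figure D4:**
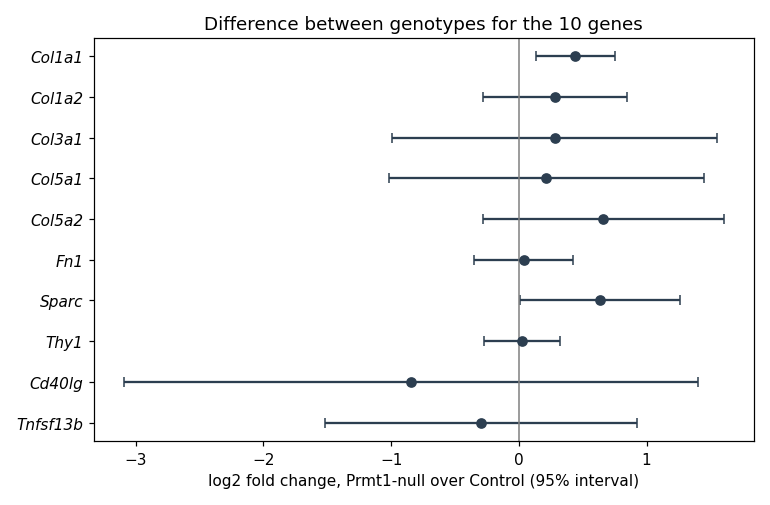
Log2 fold change of Prmt1-null over Control iGBs for the 10 genes, with 95% intervals from edgeR's fit (3 libraries per group). The intervals of Col1a1 and Sparc lie above 0 before adjustment over all genes, and the interval of Cd40lg is the widest, from 0.117-fold to 2.65-fold.

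Thy1 and Cd40lg are also T cell genes and Tnfsf13b is also a myeloid gene, so the markers of these cells are given beside them. Of 14 T cell markers 10 stayed under 100 counts in every library. The summed CPM of the list was 82.6 to 84.9 in Control and 81.5 to 95.2 in Prmt1-null libraries, and came mostly from Tcf7, Cd247 and Lck with means of 31.4, 25.5 and 24.6 CPM. Cd3d, Cd3e and Cd3g, which encode the signalling chains of the T cell receptor complex, summed to 19, 96 and 41 counts in Control and 88, 72 and 32 in Prmt1-null libraries. Trac, the constant region of the T cell receptor α chain, had 33, 43 and 13 counts in Control and 39, 47 and 48 in Prmt1-null libraries, an order of libraries that differs from that of the Cd3 genes. Of the 11 T cell markers tested, 0 were called by edgeR, DESeq2 or limma-voom, and 1 had an unadjusted p under 0.05.

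Of 13 myeloid markers, C1qa and C1qb were at 0 in all libraries, and Cd14 and Fcgr1 had at most 2 counts. The list summed to 39.2 to 44.7 CPM in Control and 40.9 to 47.3 CPM in Prmt1-null libraries, led by Cd68 with 28.3, Adgre1 with 8.46 and Itgam with 2.54 CPM. S100a8, a granulocyte gene, had 0, 412 and 32 counts in Control and 28, 60 and 54 in Prmt1-null libraries. Of 7 markers tested, Adgre1, the F4/80 antigen, was the only one called. It rose from 352.8 ± 52.1 to 585.5 ± 64.6 normalized counts (SD, n = 3), a log2 fold change of 0.73 (adjusted p = 0.0319). The call was lost without any 1 library except Control replicate 3, with adjusted p of 0.0727 to 0.141. Of 10 endothelial and splenic stroma markers, Emcn, Ccl21a and Cxcl13 were at 0, and of 4 tested 0 were called by edgeR, DESeq2 or limma-voom, with 2 at an unadjusted p under 0.05. Their sum, 77.4 to 83.1 CPM in Control and 81.3 to 97 CPM in Prmt1-null libraries, came mostly from Pecam1 with 78.6 CPM, ahead of Madcam1 with 3.66 and Cdh5 with 3.27. The part of these cells in the values of Thy1, Cd40lg and Tnfsf13b was not tested.

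Other matrix genes and fibroblast genes were compared in the same way. Of 39 other matrix genes, 21 were tested and 0 were called, with 15 fitted values above and 6 below 0 and a median of 0.17. At an unadjusted p under 0.05 there were 0 of these 21, and DESeq2 and limma-voom called 0. Of 26 fibroblast genes, 18 were tested and 0 were called by edgeR, DESeq2 or limma-voom, with 11 values above and 7 below 0 and 2 at an unadjusted p under 0.05. These were Fstl1, a secreted glycoprotein, with a log2 fold change of −1.04 (adjusted p = 0.184), and Ccn1, a matrix-associated signalling protein, with 1.13 (adjusted p = 0.233), which pointed in opposite directions.

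Of 15 genes for collagen assembly enzymes, 13 were tested and 1 was called by edgeR, DESeq2 and limma-voom alike. Fitted values were above 0 for 11 and below 0 for 2, with a median of 0.16, and 4 had Prmt1-null above Control without overlap, against 9.95% of all genes tested. The summed CPM was 435.1 to 478.9 in Control and 511.6 to 549.5 in Prmt1-null libraries, and came mostly from P4hb. Without P4hb it was 207.6, 237.9 and 228.7 CPM in Control and 221.3, 249.3 and 232 CPM in Prmt1-null libraries, and the groups overlapped. An unadjusted p under 0.05 was found for 3, against 13.5% of all genes, namely the called gene, Plod3 with a log2 fold change of 0.33 (adjusted p = 0.27 by edgeR) and Fkbp10 with 1.53 (adjusted p = 0.275) at 7 to 39 counts. P4hb, the β subunit of prolyl 4-hydroxylase and a protein disulfide isomerase of the ER in all secretory cells, rose from 12910 ± 396 to 16640 ± 543 normalized counts (SD, n = 3), which is 0.37 on the log2 scale (adjusted p = 0.00921). All Prmt1-null libraries were above all Control libraries, and without Prmt1-null replicate 2 the adjusted p was 0.0745. Its level, 93.1 RPKM, was far above that of any collagen, and with Ppib at 131.3 and P4ha1 at 50.6 CPM it led the list. Serpinh1, the collagen-specific chaperone, had 63 to 184 counts and a log2 fold change of 0.34 (adjusted p = 0.703). Lox, a collagen-crosslinking enzyme from the list of other matrix genes, had 17 to 79 counts and a log2 fold change of 0.59 (adjusted p = 0.606).

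Receptors for these proteins ranged from abundant to barely counted. Cd40 had a mean of 66.9 CPM and Tnfrsf13c, the BAFF receptor, 945.4 CPM, against 0.251 for Cd40lg and 0.624 for Tnfsf13b. Of the 7 genes listed as CD40 and BAFF receptors and related ligands, which include Tnfrsf13b with 230.3 CPM, 6 were tested and 0 called by edgeR, with 2 at an unadjusted p under 0.05. Tnfrsf17, which also binds BAFF, had 0 to 4 counts and was not tested. Tnfrsf13c had a log2 fold change of 0.28 (adjusted p = 0.0991) and Tnfrsf13b one of 0.24 (adjusted p = 0.068), both without overlap and higher in Prmt1-null libraries, as were 9.95% of all genes. DESeq2, which called 746 genes in all, and limma-voom, which called 251, called both. Of 10 matrix receptors, led by Cd44 with 893 CPM, Itga4 with 454.2 and Sdc4 with 296.8, 9 were tested and 0 called by edgeR, with 2 at an unadjusted p under 0.05. Itgb1, the β subunit shared by collagen and fibronectin integrins, had 92.5 CPM, whereas the collagen-binding α subunits Itga1 and Itga2 had 0 to 5 and 0 to 41 counts and the collagen receptor Ddr1 had 5 to 25. The smallest adjusted p was that of Itgb3, the β3 integrin, with a log2 fold change of −0.30 (adjusted p = 0.0616), which DESeq2 called and limma-voom did not. Among the 10 B cell markers 0 were called by edgeR, DESeq2 or limma-voom and 3 had an unadjusted p under 0.05, with Ms4a1 at 2613 and Fcer2a at 2381 CPM as the highest after Cd74.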

How the data were processed

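The deposited table holds unnormalized counts for each gene in 6 libraries. The authors trimmed reads (Trimmomatic 0.32), aligned them to mm10 (STAR 2.3.0e) and counted primary alignments to at most 2 locations on Ensembl exons (featureCounts 1.4.4). Of 39017 genes, 37607 matched GENCODE M21 by ID and 804 by symbol, which gave positions and merged exon lengths.

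Groups came from the sample titles. In R 4.3.3, 398 chromosome Y genes were left out, filterByExpr (minimum count 10) kept 18268 genes, counts were scaled by TMM, and edgeR 4.0.16 tested genotype by quasi-likelihood with Benjamini-Hochberg adjustment, with a call at an adjusted p under 0.05. Standard errors came from the fold change and F statistic. Correlations used log2(CPM + 0.1). Replicate libraries differed by more than sampling noise. The test was run on simulated counts first. The 10 genes and the lists were chosen with earlier results of these data known. From each list the 3 genes with the highest mean CPM and any called gene were named, with the 10 genes most like the matrix genes. S100a8, Cd3d, Cd3e, Cd3g, Trac, Fstl1, Ccn1, Itgb3, Serpinh1, Lox, Plod3, Fkbp10, Itga1, Itga2, Itgb1, Ddr1, Tnfrsf17, Pdgfrb, Prrx1, Pax5, genes at or near 0 and the P4hb and Adgre1 fits were named after their values were seen. Alternatives used DESeq2 1.42.0 and limma 3.58.1.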

Additional observations from a re-analysis of the deposited data

How the results depend on the processing

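No member was called under any alternative run. The number of all genes called, 218, became 710 with no filter on low counts and 746 with DESeq2's Wald test. It was 31 to 350 with 1 library left out and 113 without both males, a setting chosen after seeing the data. The cause was not tested. Of 99 member values under settings that kept all libraries or left out both males, 95 kept their sign and stayed uncalled, as did 51 of 60 with 1 library left out. The others changed sign. Without both males the log2 fold change was −0.10 for Col1a2, −0.056 for Fn1, −0.13 for Thy1 and 0.023 for Cd40lg. With 1 library left out it ranged from −0.083 to 0.14 for Thy1, from −0.066 to 0.19 for Fn1, from −0.018 to 0.74 for Col3a1, from −0.070 to 0.57 for Col5a1 and from −0.71 to 0.35 for Tnfsf13b. DESeq2 gave no adjusted p for 6 members of low count. Halving the counts, added because low counts were mostly even, called 251 genes and 0 members, and Cd40lg did not pass the filter.

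Same-numbered libraries came from different mice. Their deviations from group means correlated at −0.083, 0.043 and −0.086, and those of differently numbered libraries at −0.081 to 0.14. Whether libraries of the same number shared a culture or preparation day was not tested. With the replicate block 152 genes and 0 members were called, and the log2 fold change was 0.44 for Col1a1, −1.76 for Cd40lg and −0.076 for Tnfsf13b. With limma-voom the last 2 were −2.33 and −0.055. Cd40lg, Col3a1, Col5a1 and Tnfsf13b had at most 60 counts in a library, and how far depth or the spread between libraries limits them was not tested.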
